A study of Homo sapiens with 6 samples.

Results

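The subunits of the replicative DNA polymerases and of primase were followed in HK-2 cells, an immortalised line of human renal proximal tubule epithelium, after knockdown of PARP1. The members were chosen by gene symbol, as POLA1, POLA2, PRIM1, PRIM2, POLD1, POLD2, POLD3, POLD4, POLE and POLE2, and all 10 were found among the 30403 genes of the deposited count table, with 1 row each. The shPARP1 group held 3 libraries of HK-2 cells transfected by lipofection with a plasmid for an shRNA against PARP1, and the shCtrl group held 3 libraries of the same cells labelled as control. The treatment label of all 6 libraries names the shRNA against PARP1, so that the groups rest on the titles and the genotype label. Both groups were grown in DMEM with serum and harvested 48 h after transfection, and polyadenylated RNA was sequenced. The labels name neither the shRNA sequence nor a selection of transfected cells, and they do not say whether replicates came from separate cultures, so that p-values rest on the variation among these 3 and 3 libraries, part or all of which may be technical.

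The nuclear genome is copied by DNA polymerases alpha, delta and epsilon. DNA polymerase alpha and primase form a single complex that starts each new strand with a short RNA and DNA primer. Polymerase delta extends the primers of the lagging strand, held on the template by the clamp PCNA, and polymerase epsilon makes most of the leading strand beside the MCM helicase. In each enzyme a large catalytic subunit carries the polymerase active site, and smaller subunits hold the complex together or bind partners. In kidney tubule cells, which divide rarely in the intact tissue, the genes of this machinery are mainly active in cells that enter the cycle, whereas an immortalised line divides continuously in culture.

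Library totals were 29387853 to 32809303 counts in shPARP1 and 24429683 to 26269194 in shCtrl, so that the knockdown libraries were the deeper ones, and 3 counts correspond to at most 0.123 CPM (counts scaled to library size with TMM factors). PARP1 itself had 26.9, 26.2 and 28.8 CPM in shPARP1 against 262, 263 and 259 CPM in shCtrl, a log2 fold change of -3.26 (SE 0.04). Kidney markers were present: 7 of the 8 tested genes in a list of 12 proximal tubule and kidney epithelial markers were lower and none higher, with a summed level of 197 to 203 FPKM in shPARP1 and 259 to 268 FPKM in shCtrl, and CUBN was under 0.1 FPKM in every library. All 5 epithelial markers were tested (3 higher, 1 lower; sum 474 to 485 FPKM in shPARP1 and 386 to 398 FPKM in shCtrl). Markers of fibroblasts (2 of 5 tested, both lower, COL3A1, DCN and PDGFRA under 0.1 FPKM), leukocytes (2 of 6 tested, 1 lower, CD3E and PTPRC under 0.1 FPKM) and endothelium (0 of 5 tested, all under 0.1 FPKM or with no row) were low: the fibroblast list summed to 2.39 to 2.83 FPKM in shPARP1 and 4.61 to 5.57 FPKM in shCtrl, the leukocyte list to 1.33 to 1.59 FPKM in shPARP1 and 3.53 to 4.34 FPKM in shCtrl, and the endothelial list to at most 0.05 FPKM. Their part in the results below was not tested. The marker calls use the test described further on, by which 27.3% of all genes tested were higher and 28.5% lower.

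Promoter sequence from RefSeq (build GRCh38.p14) was available for 9 of the 10 members, as the window from 250 bases before to 50 after the transcription start; for genes with more than 1 start the most upstream was taken, and POLD3 had none. These RefSeq starts can lie inside the gene bounds of GENCODE that are given with each gene further on. E2F transcription factors bind short GC-rich words in the promoters of many replication genes. The words TTTCCCGC, TTTCGCGC, TTTGCCGC and TTTGGCGC were searched on both strands. Of 35116 windows of the same length from all genes, with every start kept and GC content not matched, 3.31% held one. Among the members 4 of the 9 windows held one, and enrichment was not tested. These 4 are shown with 10 bases on each side, read along the gene's strand, with the E2F-type word in capitals; in POLA1, POLE and POLE2 it reads as the reverse complement of TTTGGCGC. They lie at chrX:24693771-24693798 (plus strand), chr11:65261899-65261926 (plus), chr12:132687343-132687370 (minus) and chr14:49688202-49688229 (minus).
POLA1: tcatcacaggGCGCCAAAcgcgcgtccg
POLA2: tggctcccggTTTCGCGCatgcgtgcac
POLE: gggtgggagcGCGCCAAAtttctcccct
POLE2: tgcggcggtgGCGCCAAAtcgcaaatat

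The words stood close to the start in POLE and POLE2, where their upstream ends lay at -18 and -5 relative to the first transcribed base, and farther out in POLA2 (-53) and POLA1 (-137). None of the 3 polymerase delta windows, and neither primase window, held one of these words. The PRIM2 window, at its most upstream start, had 38.3% GC, against 66.0 to 74.7% in the other windows. Whether that start is used in these cells was not tested, so that its lack of a word may not hold for other PRIM2 starts. A match describes only the letters in the window.

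The whole windows of the polymerase delta genes POLD1, POLD2 and POLD4 are shown because the mRNAs of these subunits of a single enzyme changed in opposite directions, as described further on. Capitals mark CCAAT boxes (CCAAT, or ATTGG on the opposite strand) and GC boxes (GGGCGG or CCGCCC), the classical proximal promoter words, which were found in 34.6% and 45.0% of all windows. They cover chr19:50384073-50384372 (plus strand), chr7:44123499-44123798 (minus) and chr11:67353547-67353846 (minus).
POLD1: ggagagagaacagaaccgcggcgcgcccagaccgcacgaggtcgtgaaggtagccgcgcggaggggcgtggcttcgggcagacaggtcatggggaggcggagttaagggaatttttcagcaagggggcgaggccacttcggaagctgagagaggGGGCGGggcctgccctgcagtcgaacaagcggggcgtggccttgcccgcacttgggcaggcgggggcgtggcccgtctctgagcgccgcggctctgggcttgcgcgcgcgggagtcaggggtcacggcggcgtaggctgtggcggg
POLD2: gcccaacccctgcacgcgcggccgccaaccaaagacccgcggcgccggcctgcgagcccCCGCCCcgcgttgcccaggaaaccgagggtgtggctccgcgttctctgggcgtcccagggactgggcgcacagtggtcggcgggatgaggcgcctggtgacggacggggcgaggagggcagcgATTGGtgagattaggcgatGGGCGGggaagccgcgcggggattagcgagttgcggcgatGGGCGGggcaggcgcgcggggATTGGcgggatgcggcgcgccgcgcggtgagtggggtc
POLD4: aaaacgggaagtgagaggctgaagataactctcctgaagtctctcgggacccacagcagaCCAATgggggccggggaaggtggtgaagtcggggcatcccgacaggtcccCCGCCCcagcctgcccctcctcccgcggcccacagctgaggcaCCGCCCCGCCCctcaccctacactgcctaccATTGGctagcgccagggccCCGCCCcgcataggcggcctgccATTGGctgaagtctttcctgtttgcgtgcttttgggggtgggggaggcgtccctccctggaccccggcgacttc

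POLD1, whose mRNA was lower after knockdown, had 1 GC box and no CCAAT box. POLD2 and POLD4, whose mRNAs were higher, each had CCAAT boxes (2 in POLD2, 3 in POLD4) and several GC boxes (3 in POLD2, 4 in POLD4, of which 2 share a base). The windows were GC-rich in all 3 genes, at 71.0% in POLD1, 74.7% in POLD2 and 67.0% in POLD4. POLE, whose mRNA was lower, also held both kinds of box. POLD3, which also fell, had no window, and a link between the boxes and the changes was not tested. CCAAT boxes also stood in POLA1 and PRIM1, so that 5 of the 9 windows held one, and 6 of 9 held a GC box; with 9 windows these shares describe the members and no more.

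Of the 10 subunit genes, 2 rose, 3 fell and 5 did not pass the test (edgeR quasi-likelihood test, Benjamini-Hochberg adjusted p under 0.05 over all 16040 genes tested; all 10 passed the filter on low counts). Over all genes tested, 55.7% changed, 27.3% upward and 28.5% downward, so that the share of members called lay near this background. The median log2 fold change of the 10 was -0.04, beside -0.01 over all genes tested, signed values in which rises and falls offset. The largest change among the members, 0.43 for POLD4, was under the median absolute change of 0.49 among called genes. Over all genes tested the median absolute change was 0.337. POLD2 (0.353), POLD3 (-0.395) and POLD4 exceeded it in size, and the other members did not. The 5 called members were all 4 subunits of polymerase delta and the catalytic subunit of polymerase epsilon, and the 5 that did not pass were the 4 subunits of the polymerase alpha and primase complex and POLE2. The CPM ranges of the groups were apart for the 5 called members and overlapped for the other 5, while 60.1% of all genes tested had ranges that were apart. In bulk RNA, a smaller share of cells that transcribe a gene, such as cells in S phase, and less RNA per cell cannot be told apart.

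**Figure D1:**
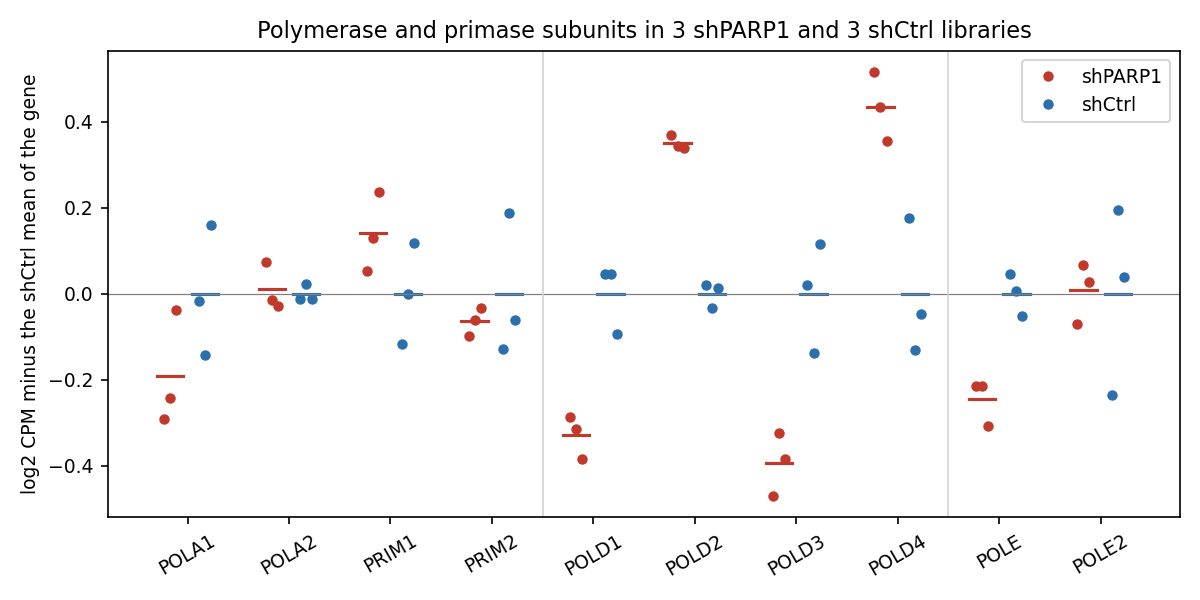
Log2 CPM of each subunit gene in each library minus the mean of its 3 shCtrl libraries (vertical axis), with shPARP1 points left of shCtrl points and a bar at each group mean; grey lines separate the alpha and primase, delta and epsilon genes. The shPARP1 points stand below all shCtrl points for POLD1, POLD3 and POLE, above them for POLD2 and POLD4, and overlap with them for the other 5 genes.

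None of the 4 genes of the complex that lays down primers passed the test. POLA1 (chrX:24693919-24996986 on GRCh38, plus strand, 38 merged exons in GENCODE release 29) encodes the catalytic subunit of polymerase alpha and had 12.0, 12.4 and 14.3 CPM in shPARP1 against 14.5, 13.3 and 16.4 CPM in shCtrl. The shPARP1 values were mostly the lower ones, but shPARP1 replicate 3 stood above shCtrl replicate 2, so that the groups overlapped. Its log2 fold change of -0.19 (95% interval -0.38 to -0.01) did not pass after adjustment over all genes (edgeR adjusted p = 0.0704). It passed when shPARP1 replicate 3 was left out (-0.27, adjusted p = 0.0217) or shCtrl replicate 2 (-0.25, adjusted p = 0.0287). Leaving out other libraries brought its log2 fold change as near 0 as -0.11, and the tests on log2(FPKM + 1) gave -0.10, neither passing.

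POLA2 (chr11:65261762-65305589, plus strand), the regulatory B subunit that tethers POLA1, had similar values throughout, at 34.6 to 37.1 CPM in shPARP1 and 35.0 to 35.8 CPM in shCtrl. Its log2 fold change was 0.01, and the interval of -0.11 to 0.13 holds none of the values of the 4 delta genes. With an offset for gene length and GC content POLA2 passed the test narrowly (0.13, edgeR adjusted p = 0.0460), and with the replicate block added it did not (adjusted p = 0.0544). In the annotation it shares 2012 exon bases with a read-through gene on the same strand, AP000944.2, whose reads are not counted separately in the table used here.

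PRIM1 (chr12:56731596-56752373, minus strand), the catalytic subunit of primase that makes the RNA part of the primer, had 11.0 to 12.5 CPM in shPARP1 and 9.77 to 11.5 CPM in shCtrl (log2 fold change 0.14, interval -0.05 to 0.34, edgeR adjusted p = 0.219). PRIM2 (chr6:57314805-57646849, plus strand), the large subunit with an iron-sulfur cluster that binds the template, had 15.4 ± 0.377 CPM in shPARP1 and 16.1 ± 1.95 CPM in shCtrl (SD, n = 3 each; edgeR log2 fold change -0.07, interval -0.24 to 0.11, adjusted p = 0.529). For both genes the groups overlapped. The PRIM2 values are uncertain, because 2 annotated pseudogenes match its transcript at 96.2% identity over 1388 bases and 98.8% over 838 bases, neither with a row in the table used here, and how their reads were counted is not given in the sources used here. A PRIM1 pseudogene matches over 1251 bases at about 90% identity, and 132 exon bases of PRIM1 lie opposite HSD17B6, which had 6 to 14 counts per library. On its own strand PRIM1 shares 362 exon bases with AC117378.1, which has no row in the table used here, and 33 with NACA, which had 4198 to 7236 counts per library beside 234 to 373 for PRIM1, so that the PRIM1 values are uncertain too.

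The subunits of polymerase delta changed in both directions. Its catalytic subunit POLD1 and its subunit POLD3 fell, and its subunits POLD2 and POLD4 rose. Each of these 4 directions, and each call, was kept under all 20 alternative settings.

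POLD1 (chr19:50384204-50418016, plus strand, 28 merged exons), which carries both the polymerase and the proofreading exonuclease, had 104, 102 and 97.2 CPM in shPARP1 against 131, 131 and 119 CPM in shCtrl. Every shPARP1 library lay below every shCtrl library. The means were 101 ± 3.37 CPM in shPARP1 and 127 ± 6.81 CPM in shCtrl (SD, n = 3 each), a log2 fold change of -0.33 (SE 0.04, edgeR adjusted p = 1.3e-09), or 0.794 times the control level. With the length and GC offset the value was -0.12 (adjusted p = 0.00184). POLD1 shares 426 exon bases with AC020909.1, a gene on the same strand (CTD-2545M3.6 in the count table). That gene had 0 to 4 counts per library, and how reads of the shared bases were assigned is not known.

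POLD3 (chr11:74493851-74669117, plus strand), an elongated subunit that binds PCNA and that polymerase zeta also uses, also fell, at a much lower level. It had 8.26, 9.14 and 8.76 CPM in shPARP1 against 11.6, 10.4 and 12.4 CPM in shCtrl, with no overlap. The log2 fold change was -0.40 with a wider error (SE 0.10, interval -0.60 to -0.19, edgeR adjusted p = 0.00072); the gene had 261 to 323 counts in a library. On the log2(FPKM + 1) scale, which compresses low values, it was -0.24, the value nearest 0 among the alternatives. POLD3 shares 123 exon bases with AP001372.2, a gene on the same strand with 4 to 12 counts per library. The assignment of reads of these bases is not known either.

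POLD2 (chr7:44114681-44124358, minus strand, 13 merged exons), the B subunit that links POLD1 to POLD3 and is shared with polymerase zeta, was the most abundant member. It rose to 288, 283 and 282 CPM in shPARP1, against 226, 218 and 225 CPM in shCtrl. The gap between the groups was several times the spread within either. The log2 fold change was 0.35 (SE 0.035, interval 0.28 to 0.42, edgeR adjusted p = 3.3e-13), or 1.28 times the control level. A processed pseudogene, POLD2P1, matches 999 bases at 91.9% identity and had at most 2 counts in a library.

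POLD4 (chr11:67350777-67356972, minus strand), the small subunit that stabilises the complex and whose protein is degraded after DNA damage, had 41.5, 39.2 and 37.1 CPM in shPARP1 against 32.8, 26.5 and 28.1 CPM in shCtrl. Its groups did not overlap either, though shCtrl replicate 1 stood above the other shCtrl libraries. The log2 fold change of 0.43 (SE 0.07, interval 0.30 to 0.57, edgeR adjusted p = 2.2e-07) corresponds to 1.35 times the control level. POLD4 shares 650 exon bases with AP003419.1, a gene on the same strand (AP003419.11 in the count table), which had 19 to 37 counts per library, beside 688 to 1366 counts for POLD4; how reads of the shared bases were assigned is not known.

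Polymerase epsilon showed a lower catalytic subunit beside a B subunit that did not pass the test. POLE (chr12:132623753-132687365, minus strand, 43 merged exons), its catalytic and proofreading subunit, had 127, 127 and 119 CPM in shPARP1 against 152, 148 and 142 CPM in shCtrl. All shPARP1 libraries were lower than all shCtrl libraries, with means of 124 ± 4.58 CPM in shPARP1 and 148 ± 4.66 CPM in shCtrl (SD, n = 3 each). The log2 fold change of -0.25 (SE 0.04, edgeR adjusted p = 3.9e-07) was the smallest of the 5 that passed, and it was the only one of them lost under an alternative: with the length and GC offset it was -0.02 (adjusted p = 0.690), and -0.02 with the replicate block added (adjusted p = 0.695). POLE has the longest exon sequence of the members, 16609 bases with all annotated exons merged, against 2437 to 6336 bases in the other 9. The offset used these merged lengths, which can exceed the length of any single transcript. No offset with another length was tried, so that the loss of the POLE call may depend on this choice.

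POLE2 (chr14:49643555-49688422, minus strand), the B subunit of polymerase epsilon, had 6.28 to 6.90 CPM in shPARP1 and 5.60 to 7.55 CPM in shCtrl. The shPARP1 values lay within the shCtrl range. Its log2 fold change of -0.005 has an interval of -0.26 to 0.25, the widest of the members, at 134 to 213 counts in a library; the value of POLE lies inside that interval. The other subunits of polymerase epsilon, the histone-fold proteins POLE3 and POLE4, are not among the members but complete the enzyme. POLE3 had 74.0 ± 2.54 CPM in shPARP1 and 65.8 ± 1.34 CPM in shCtrl (log2 fold change 0.17, SE 0.047, edgeR adjusted p = 0.00141), and POLE4 had 88.6 ± 2.67 CPM in shPARP1 and 71.5 ± 3.09 CPM in shCtrl (0.31, SE 0.045, adjusted p = 4.5e-08; SD, n = 3 each). Both rose. With the length and GC offset POLE3 lost its call (0.09, adjusted p = 0.0665), and POLE4 kept it at a smaller value (0.20, adjusted p = 1.3e-05).

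**Figure D2:**
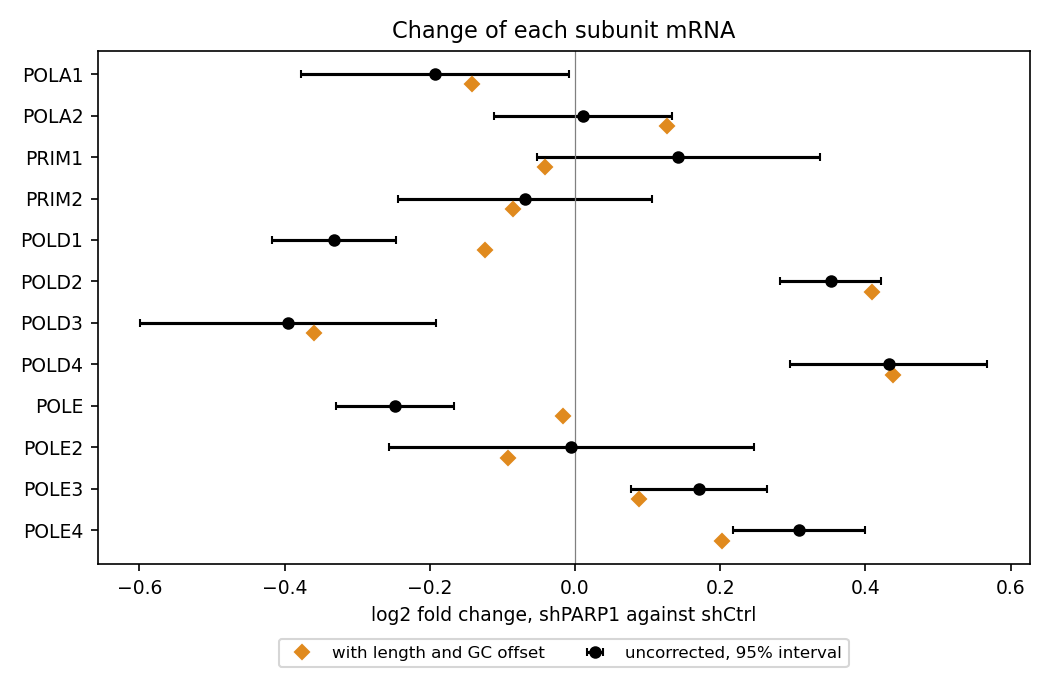
Log2 fold change of each subunit mRNA, shPARP1 against shCtrl (horizontal axis), with its 95% interval from the edgeR fit in black and the value with an offset for gene length and GC content as an orange diamond. The offset moves POLE to -0.02 and POLD1 to -0.12, and leaves POLD2 at 0.41, POLD3 at -0.36 and POLD4 at 0.44.

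Exon lengths are set beside the directions here, because the offset moved some values. The delta and epsilon subunits that fell have merged exon lengths of 4932 (POLD1), 5508 (POLD3) and 16609 bases (POLE), and those that rose have 3695 (POLD2), 3049 (POLD4), 2604 (POLE3) and 2151 bases (POLE4). POLE2 (2955 bases), PRIM2 (4667), POLA2 (5726) and POLA1 (6336) did not pass without the offset. The offset moved POLA2 from 0.01 to 0.13 and POLA1 from -0.19 to -0.14. GC content was 65.0% in POLD1, whose value the offset moved from -0.33 to -0.12. It was 43.0% in POLD3, which moved from -0.40 to -0.36, and 55.6% in POLE. The offset covers length and GC content together, so that neither was tested alone. Under the length and GC offset, the split within polymerase delta remained and the fall of POLE did not. PRIM1, with 2437 bases the shortest of the members, had a log2 fold change of -0.04 with that offset and 0.14 without it, and passed in neither fit. The deeper sequencing of the shPARP1 libraries also ran with the groups: with counts thinned to the smallest library total, the calls of POLD1, POLD2, POLD3, POLD4 and POLE were kept.

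Whether subunits of an enzyme kept their proportions was examined within each library, where no scaling between libraries enters, although effects of gene length or GC content that differ between libraries can. Of 13 pairs of subunits, 5 had FPKM ratios that did not overlap between the groups, 4 of them within polymerase delta and 1 within the alpha and primase complex. With 3 libraries against 3, the exact permutation test (two-sided) cannot go below p = 0.1, which these 5 pairs reached (adjusted p = 0.26 over the 13 pairs), so that none can pass. The share of other gene pairs in the table with ratios apart was not computed, and 60.1% of single genes had ranges apart.

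The ratio of POLD2 to POLD1 was 4.29, 4.27 and 4.47 in shPARP1 against 2.65, 2.56 and 2.90 in shCtrl. POLD2 mRNA per length was therefore in larger excess over the catalytic subunit in every knockdown library. The ratio of POLD4 to POLD1 was 0.724, 0.694 and 0.690 in shPARP1 against 0.452, 0.366 and 0.426 in shCtrl, a difference of 0.77 on the log2 scale. POLD4 to POLD3 showed the largest shift, 9.52 ± 0.93 in shPARP1 and 5.38 ± 0.601 in shCtrl (SD, n = 3 each; log2 difference 0.83). In contrast, the ratio of POLD3 to POLD1 was 0.0741 ± 0.005 in shPARP1 and 0.0775 ± 0.0108 in shCtrl, and that of POLD4 to POLD2 was 0.162 ± 0.00719 in shPARP1 and 0.153 ± 0.0151 in shCtrl (SD; exact permutation p = 0.9 and p = 0.4, n = 3 each). Both of these ratios overlapped between the groups. With the length and GC offset, the log2 fold changes were -0.12 for POLD1, -0.36 for POLD3, 0.41 for POLD2 and 0.44 for POLD4. POLD3 and POLD1 thus lay further apart than without the offset, and POLD2 and POLD1 lay closer together.

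**Figure D3:**
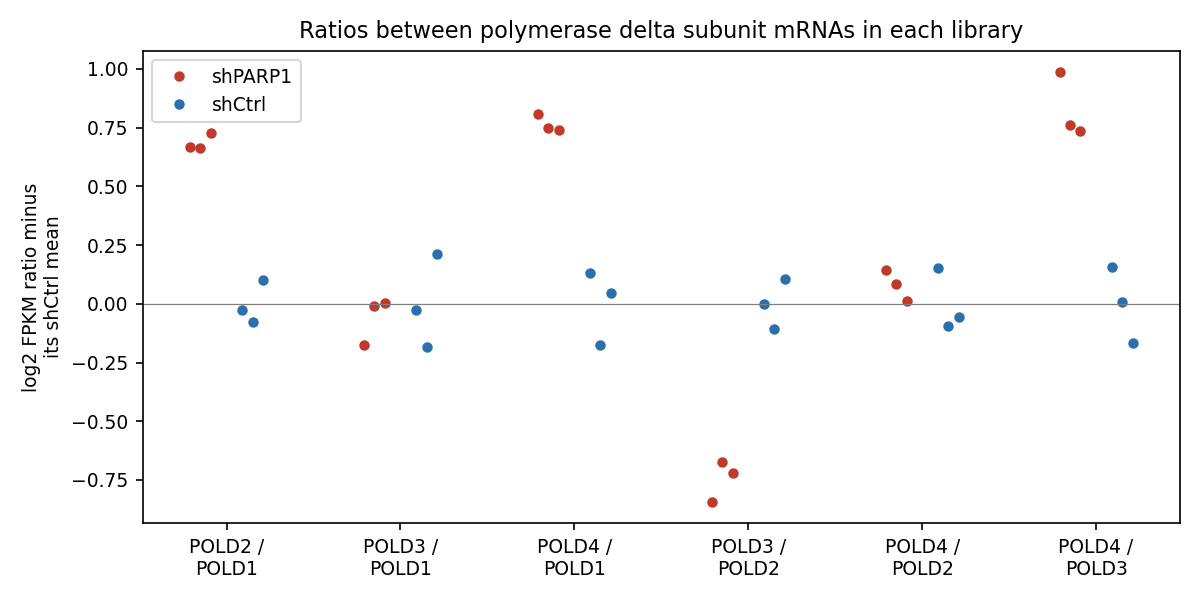
Log2 ratio of FPKM between pairs of polymerase delta subunits in each library, minus its shCtrl mean (vertical axis), with shPARP1 points left of shCtrl points. The groups stand apart for POLD2 to POLD1, POLD4 to POLD1, POLD3 to POLD2 and POLD4 to POLD3, and overlap for POLD3 to POLD1 and POLD4 to POLD2.

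Among the 6 pairs of the alpha and primase complex, PRIM1 to POLA1 was the pair whose groups did not overlap. Its ratio was 3.63, 3.68 and 3.44 in shPARP1 against 2.65, 3.12 and 2.76 in shCtrl (log2 difference 0.34). With the length and GC offset, the log2 fold changes of these genes lay closer together, at -0.04 for PRIM1 and -0.14 for POLA1. The other 5 pairs overlapped, with log2 differences of at most 0.21 in size. POLE2 to POLE was 0.189 ± 0.0128 in shPARP1 and 0.159 ± 0.0257 in shCtrl (SD, n = 3 each; log2 difference 0.26, exact permutation p = 0.2), also with overlap; with the offset, POLE2 had a log2 fold change of -0.09 and POLE of -0.02.

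Levels were compared between genes as FPKM, that is per length of the authors' gene models. They spanned a wide range: POLD2 was highest, at 111 ± 1.02 FPKM in shPARP1 and 84.1 ± 0.567 FPKM in shCtrl, and POLD3 and POLA1 were lowest, at 1.89 ± 0.101 and 2.11 ± 0.206 FPKM in shPARP1 and 2.40 ± 0.195 and 2.33 ± 0.232 FPKM in shCtrl. In shPARP1 the order was POLD2, POLD1 (25.5 FPKM), POLD4 (17.9), POLE (14.2), POLA2 (8.50), PRIM1 (7.53), PRIM2 (5.01), POLE2 (2.67), POLA1 and POLD3. In shCtrl it was POLD2, POLD1 (31.2 FPKM), POLE (16.3), POLD4 (12.9), POLA2 (8.18), PRIM1 (6.61), PRIM2 (5.10), POLE2 (2.60), POLD3 and POLA1. POLD4 stood above POLE in all 3 shPARP1 libraries and below it in all 3 shCtrl libraries. Neighbours whose ranges overlapped were POLA1 and POLD3 in shPARP1, and POLE2, POLD3 and POLA1 in shCtrl. With counts per kilobase of merged GENCODE exons in shCtrl, POLD4 ranked above POLE. POLA1 then had rank 8, above POLE2 (9) and POLD3 (10). The order within both sets thus depends on the length used.

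**Figure D4:**
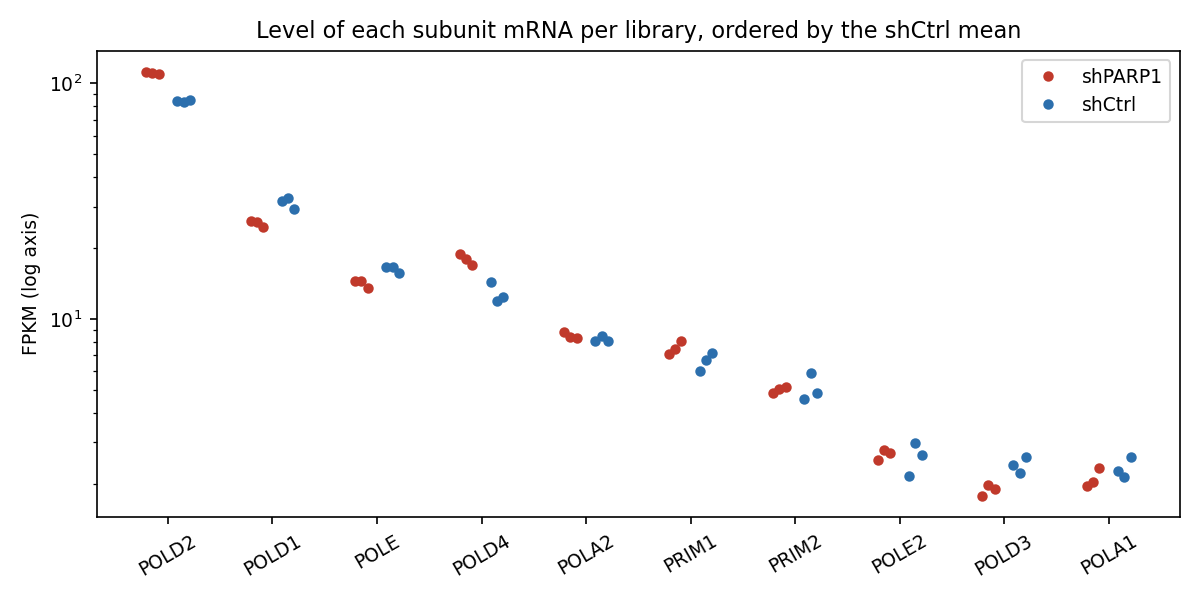
FPKM of each subunit mRNA in each library on a log axis, ordered from left to right by the shCtrl mean, with shPARP1 points left of shCtrl points. POLD2 stands above all other subunits in both groups, and POLD4 and POLE change places between the groups.

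At POLE, another protein-coding gene starts on the opposite strand 241 bases from its start. This gene, PXMP2, which encodes a peroxisomal membrane channel, was 45.5 ± 1.46 CPM in shPARP1 and 41.6 ± 0.851 CPM in shCtrl (SD, n = 3 each; log2 fold change 0.13, edgeR adjusted p = 0.0487), while POLE was lower. The call of PXMP2 was kept under 10 of 20 alternatives, and with the length and GC offset its value was -0.04. POLD3 has LIPT2, a lipoyl transferase gene, 118 bases away on the opposite strand, at 2.46 ± 0.384 CPM in shPARP1 and 2.66 ± 0.434 CPM in shCtrl (-0.11, adjusted p = 0.657).

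The partners of the polymerases at the fork moved in both directions. Counts in this and the later lists stand beside 27.3% higher and 28.5% lower over all genes tested. Of 28 clamp, clamp loader, single-strand binding, Okazaki fragment and topoisomerase genes, POLE3 and POLE4 included, 15 rose, 4 fell and 9 did not pass, with a median log2 fold change of 0.17. The topoisomerases TOP1 (1.09) and TOP2A (0.49), which relieve the winding ahead of the fork, and RNASEH2C (0.58), a subunit of the RNase that removes RNA from DNA, had the smallest p-values among the rises. LIG1 (-0.27), the ligase that seals Okazaki fragments, PCNA (-0.15), the clamp of polymerase delta, and RPA1 (-0.15), the large single-strand binding subunit, had the smallest among the falls. PCNA had 150 ± 5.34 CPM in shPARP1 and 167 ± 10.4 CPM in shCtrl (SD, n = 3 each); the groups overlapped, and its call ended in the tests on FPKM (adjusted p = 0.124 to 0.303), while with the length and GC offset its value was -0.36 (edgeR adjusted p = 1e-15). With the same offset LIG1 was -0.13, and RPA1 lost its call (-0.05), as it did in the tests on FPKM.

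The MCM and GINS genes, which encode the helicase that polymerase epsilon travels with, were lower for 7 of 10 and higher for 2, with a median of -0.32. MCM6 (-1.05), MCM5 (-0.46) and MCM7 (-0.37), ring subunits of the helicase, fell, and GINS2 (0.59) and GINS4 (0.34) rose. MCM6 had 35.7 ± 1.09 CPM in shPARP1 and 73.8 ± 1.98 CPM in shCtrl (SD, n = 3 each), a change larger than that of any polymerase subunit. Whether the helicase genes differed from the polymerase genes as a group was not tested.

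Genes of origin licensing and firing rose for 3 of 15 and fell for 4 (median 0.04). ORC6 (0.58) and ORC3 (0.42) of the origin recognition complex rose with GMNN (0.19), the inhibitor of licensing, and ORC1 (-0.42), the licensing factor CDT1 (-0.28) and TICRR (-0.20), which starts firing, fell. With the length and GC offset CDT1 was -0.15, and GMNN and TICRR lost their calls (0.05 and -0.04), GMNN also without shPARP1 replicate 1 (adjusted p = 0.0863), and TICRR also without shPARP1 replicate 2 (0.0838) or shCtrl replicate 2 (0.0546) and in the tests on FPKM. Enzymes of nucleotide supply changed in 11 of 12 cases, 6 upward and 5 downward (median 0.01), beside 55.7% of all genes tested. NME1 (0.98), a nucleoside diphosphate kinase, and the dCTP pyrophosphatase DCTPP1 (0.45) rose, and the thymidine kinase TK1 (-0.49), the ribonucleotide reductase subunit RRM1 (-0.42) and the dNTPase SAMHD1 (-0.36) fell. With the length and GC offset DCTPP1 was 0.29 and SAMHD1 -0.22, both still past the test. NME1, like TOP1 above, has close paralogs or pseudogenes, so that its counts are uncertain.

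Of 26 genes of E2F and G1/S control, 8 rose, 12 fell and 6 did not pass (median -0.12). MYBL2 (0.57), a transcription factor of cycling cells, the inhibitor gene CDKN2A (0.36) and the phosphatase CDC25A (0.60) led the rises by p-value, and the cyclin CCND3 (-0.80), the kinase CDK2 (-0.68) and the inhibitor CDKN1A (-0.44) led the falls. MYBL2 had 912 ± 14.5 CPM in shPARP1 and 614 ± 16.5 CPM in shCtrl, and CDK2 had 42.9 ± 0.838 CPM in shPARP1 and 68.6 ± 5.26 CPM in shCtrl (SD, n = 3 each). Both directions were thus present among the regulators, as they were among the polymerase subunits.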

How the data were processed

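RNA-seq of 6 HK-2 libraries was used, 3 shPARP1 and 3 shCtrl, grouped by their titles and genotype label. The authors deposited whole-number read counts per gene, not normalised, and FPKM values rounded to 2 decimals for 30306 of the same genes. The submitters' processing notes name GRCh38 as build and, among tools, TopHat2, bcl2fastq and edgeR. No source used here names the read counter, whether it used strand, or the gene annotation, so that reads of overlapping genes on opposite strands may not have been separated.

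Counts were filtered with filterByExpr (16040 genes kept), scaled by TMM and tested with the robust quasi-likelihood F test of edgeR 4.0.16 in R 4.3.3, two-sided, with Benjamini-Hochberg adjustment over all genes tested; a gene was called at an adjusted p under 0.05. CPM values are TMM-scaled, except the limit of 3 counts, which uses library totals. Standard errors are the log2 fold change divided by the square root of F. Alternatives were other scalings and filters, DESeq2 1.42.0, limma 3.58.1 (voom on counts, and trend on log2(FPKM + 1) and log2(FPKM + 0.1)), the replicate number as a block, thinned counts, leaving out each library, and an offset fitted with natural splines (5 degrees of freedom each) on merged exon length and on GC content of the longest transcript in GENCODE release 29, which matched 97.4% of genes. Near-identical copies were transcripts of other genes matching over at least 400 bases at 90% identity or more. Ratios and permutation tests used Python 3.11.15 with scipy 1.17.1.

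Library totals were 24429683 to 32809303 counts, and within each group the libraries differed by more than sampling noise (chi-square per degree of freedom 2.54 to 4.63), so that none was treated as a duplicate of another. Intervals are from the fit at a level of 95%, and the limit of 3 counts covers counting error only. The members and gene lists were chosen with earlier results of these data known. Genes were named as all members, PARP1, POLE3, POLE4, and up to 3 rises and 3 falls per list by smallest p; PXMP2 and LIPT2 were named for their position. Some genes that the rule would name are not reported here.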

Additional observations from a re-analysis of the deposited data

How the results depend on the processing

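The calls and directions of POLD1, POLD2, POLD3 and POLD4 were kept under all 20 alternatives, and that of POLE under 18, the exceptions being the length and GC offset alone (-0.02, adjusted p = 0.690) and with the replicate block (-0.02, adjusted p = 0.695). The number of members called was 4 to 6. Over all genes, 7005 to 9060 were called, and 64 to 82 of the pathway list genes, whose falls numbered 25 in place of 38 in the test on log2(FPKM + 1) with no filter. PARP1 was lower under every alternative.

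Some members that did not pass changed sign around 0 without passing. POLE2 was 0.001 with DESeq2 size factors, 0.002 with DESeq2, 0.025 with library totals only, 0.000 in limma-voom, 0.035 on log2(FPKM + 1) with and without the filter, 0.049 on log2(FPKM + 0.1), 0.003 with the replicate block, 0.019 with thinned counts, and -0.11 to 0.11 when a library was left out. PRIM1 was, with the length and GC offset, -0.042 without the replicate block, and -0.04 with it. Leaving out a library gave -0.02 to 0.04 for POLA2, -0.133 to 0.047 for PRIM2 and -0.25 to 0.01 for LIPT2. PXMP2 was -0.04 under the length and GC offset, and MKI67 0.053, in both cases also with the replicate block (-0.037 and 0.054). The ratio of POLD3 to POLD1 differed by 0.042 with FPKM + 1 and by -0.151 to 0.046 when a library was left out, and that of PRIM2 to POLA2 by -0.13 to 0.016. The cause of these changes was not tested.

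The deviations of same-numbered libraries of the groups had correlations near 0 (0.036, -0.004 and 0.036), and those of the other pairs were -0.059 to 0.025. Not every library correlated best with its own number. These values cannot show whether same-numbered libraries were prepared together. With the replicate block 9060 genes were called, 5 of them members. Depth limits POLE2, PRIM1 and POLD3 most, with means of 188, 317 and 281 counts in a library, in that order.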

Other observations

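Outside replication, genes of translesion, repair and mitochondrial DNA synthesis passed the test upward for 3 and downward for 5 of 16 tested, at a median log2 fold change of -0.05. POLB (0.63), the gap-filling polymerase of base excision repair, had 16.2 ± 0.353 CPM in shPARP1 and 10.5 ± 0.291 CPM in shCtrl (SD, n = 3 each). MAD2L2 (0.21), a subunit of polymerase zeta beside POLD2 and POLD3, and C10orf2 (0.22), the mitochondrial helicase twinkle, also rose. POLM (-0.70), an end-joining polymerase, POLH (-0.68), the polymerase that bypasses ultraviolet damage, and POLG (-0.24), the mitochondrial polymerase, fell, POLG without its call under the length and GC offset (-0.09). POLM had 11.6 ± 0.523 CPM in shPARP1 and 18.9 ± 1.04 CPM in shCtrl.

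Among 10 proliferation markers, 6 rose and 1 fell (median 0.09), beside 27.3% and 28.5% of all genes tested. BIRC5 (0.74), AURKB (0.58) and CCNB1 (0.42), all active in mitosis, rose, BIRC5 with 195 ± 1.44 CPM in shPARP1 and 117 ± 2.91 CPM in shCtrl (SD, n = 3 each). MKI67, a marker of cycling cells, was the one that fell (-0.14, edgeR adjusted p = 0.00248), with 225 ± 10.4 CPM in shPARP1 and 248 ± 17.6 CPM in shCtrl, the groups overlapping. Its call ended without shCtrl replicate 1 (-0.09, adjusted p = 0.0541), with the replicate block (adjusted p = 0.0700) and in the tests on FPKM, and its sign turned with the length and GC offset (0.05).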
